A study of Mus musculus with 6 samples.

Results

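The histone cluster genes of the mouse were followed in total RNA of the brain, in a sham-operated group and after ischemia and reperfusion. Members were the rows of the deposited expression table whose gene name starts with Hist1h, Hist2h, Hist3h or Hist4h and whose counts sum to at least 12 over the 6 libraries. Of 56826 rows, 23473 of them with a gene symbol, 68 carried such a name and 62 were kept. The kept members were 6 of type H1, 15 of H2a, 16 of H2b, 12 of H3 and 13 of H4. By locus, 48 belonged to the Hist1 cluster on chromosome 13, 10 to Hist2 on chromosome 3, 3 to Hist3 on chromosome 11 and 1 to Hist4 on chromosome 6 (mm10). The sham group (3 libraries) and the ischemia/reperfusion group (3 libraries) were adult male C57BL/6 mice of 8 to 9 weeks and 22 to 25 g, all under chloral hydrate anaesthesia. In the second group a coated filament closed the middle cerebral artery for 60 min (tMCAO, 1 h of ischemia) and was then withdrawn for 6 h of reperfusion, while sham animals had the surgery without the filament. The labels give the tissue as brain, without region or hemisphere, and do not say whether the 3 libraries of a group came from separate animals, so the p-values measure the spread between these libraries, which may be technical.

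Nucleosomes wrap DNA around an octamer of the core histones H2A, H2B, H3 and H4, and the linker histone H1 binds where DNA enters and leaves. The clustered genes are mostly replication-dependent: they are transcribed as cells copy their DNA, lack introns, and end their messenger RNA in a stem-loop bound by SLBP in place of a poly(A) tail. Most cells of the adult brain no longer divide and draw on replacement histones such as H3.3, whose genes lie outside the clusters and give polyadenylated messages. RNA without a poly(A) tail is kept when libraries are made from total RNA after removal of ribosomal RNA, as here.

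Deposited counts came to 45.4 to 49.7 (in units of 1e6) per library, and the members held 0.151% to 0.207% of them. A level is given below as RPKM, the count scaled to 1 kb of row and to a library total of 1e6, or as CPM, scaled to the library alone, where rows are summed. Values of single libraries are given in the order of replicates 1, 2 and 3. Coordinates are the spans of the gene rows (mm10), all protein-coding in RefSeq unless said otherwise. Markers of neurons, astrocytes and oligodendrocytes were present in all 6 libraries. Summed markers of neutrophils and monocytes (7 of 8 matched) ranged over 4.60 to 7.46 CPM for sham and 9.41 to 15.3 CPM for ischemia/reperfusion, those of microglia over 69.0 to 89.3 against 79.0 to 120.3 CPM, those of astrocytes over 1393 to 1506 against 1142 to 1373 CPM, those of oligodendrocyte precursors over 121 to 149 against 64.6 to 120.2 CPM, and those of oligodendrocytes over 3748 to 4617 against 3205 to 8077 CPM. Among the precursor markers, Pdgfra averaged 87.1 CPM in sham against 53.6 CPM in ischemia/reperfusion, Cspg4 19.7 against 19.0 and Vcan 25.4 against 25.2. The difference in that sum thus lay mostly in Pdgfra. Among the microglial markers, Cx3cr1 averaged 9.70 against 21.9 CPM and Aif1 1.02 against 1.86 CPM, while the groups of Csf1r, P2ry12 and Tmem119 overlapped. The part of all these markers in the results below was not tested. In tissue of many cell types, fewer cells of a type and less RNA per cell cannot be told apart.

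No member passed an adjusted p of 0.05 (edgeR quasi-likelihood test, adjusted over 40170 rows), where 0.00249% of all rows tested were called higher and 0% lower. Of the 62 members 61 were tested, and their log2 fold changes ran from -0.60 to 0.55 with a median of 0.04, against 0.02 over all rows and -0.04 over gene-symbol rows. An unadjusted p under 0.05 was given to 2 members in the higher direction (3.28%), where the share was 8.73% of all rows and 6.39% of gene-symbol rows. In the lower direction it was given to 6 members (9.84%), against 6.9% of all rows and 8.71% of gene-symbol rows. The members' shares were thus below the background for higher genes and near it for lower ones. Groups did not overlap for 2 members higher and 5 lower, where 14% of all rows (10.3% of gene-symbol rows) lay higher without overlap and 6.99% (8.79%) lower. By locus, the 8 members under an unadjusted p of 0.05 fell as follows: all 3 of Hist3 and the 1 of Hist4 were lower, Hist2 held 1 lower and 1 higher of 10, and Hist1 held 1 lower and 1 higher of 47 tested. With 3 rows in Hist3 and 1 in Hist4, a difference between loci was not tested. Of single libraries, leaving out ischemia/reperfusion replicate 1 gave 11 lower members (18.0%), where the share of all rows was 9.98%, and 2 members past an adjusted p of 0.05, Hist1h4i and Hist4h4. These 2 are 3.28% of the members tested, and the same edgeR fit called 1057 of 40919 rows (2.58%), so their share was near the background. Leaving out ischemia/reperfusion replicate 2 gave 6 higher members (9.84%, against 7.93% of all rows), and leaving out sham replicate 1, sham replicate 2 or ischemia/reperfusion replicate 3 gave 1. DESeq2 gave an adjusted p under 0.05 to 1 member, Hist2h2bb (0.0322), where it called 1.03% of 33934 rows higher and 0.666% lower.

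**Figure D1:**
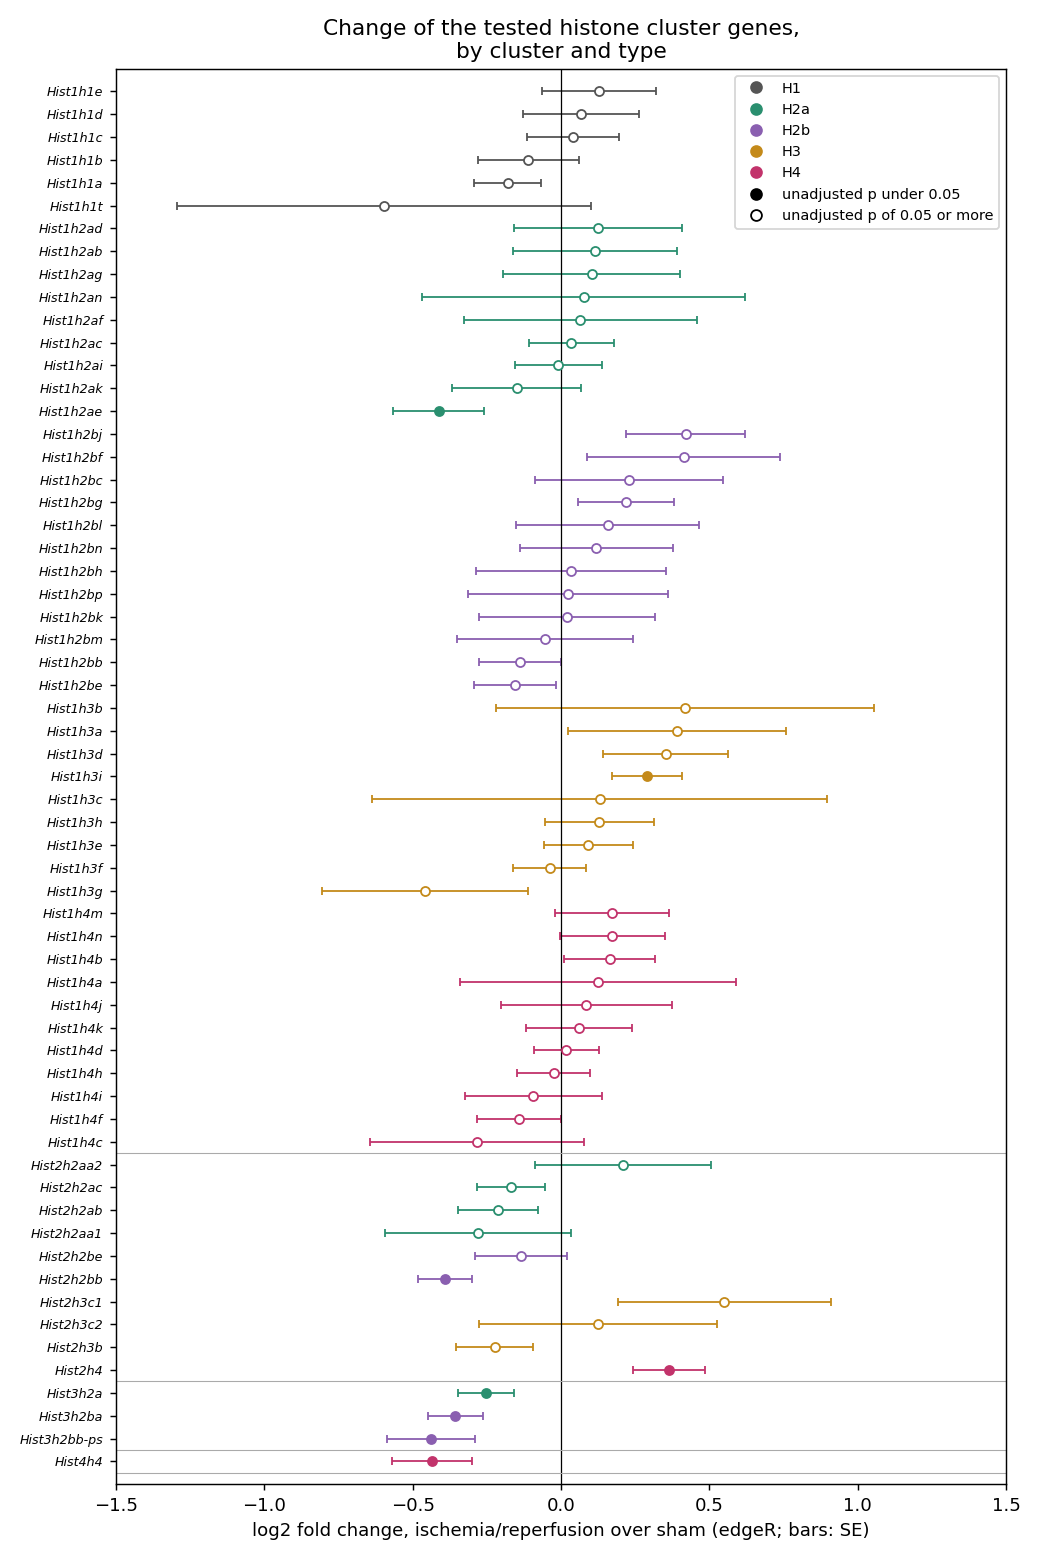
Change of the 61 tested histone cluster genes. Points give the log2 fold change of ischemia/reperfusion over sham and bars its SE (edgeR); filled points have an unadjusted p under 0.05, colour marks the type, and lines separate the clusters Hist1, Hist2, Hist3 and Hist4 from top to bottom. Most Hist1 bars cross or come near 0, while the 3 Hist3 members and Hist4h4 lie below it.

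Upstream sequence was read for the members that the comparison turns on, since histone types are known to carry characteristic promoter elements. RefSeq (GRCm38.p6) gave a promoter window for 56 of the 62 members, and for 6 of the 8 with an unadjusted p under 0.05. The 150 bases that end just before the start of transcription are printed 5′ to 3′ on the strand of the gene. Capitals mark 4 motifs searched on both strands, none of which overlap each other here. They were a TATA box spelled TATAAA, the CCAAT box, the H2A and H2B octamer ATTTGCAT (ATGCAAAT on the other strand) and the box of H1 promoters spelled AAACACA.
Hist2h2bb, chr3:96269550-96269699, plus strand: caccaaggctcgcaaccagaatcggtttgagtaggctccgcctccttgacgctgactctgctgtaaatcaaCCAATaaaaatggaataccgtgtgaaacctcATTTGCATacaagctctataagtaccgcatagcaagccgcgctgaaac
Hist3h2ba, chr11:58948761-58948910, plus strand: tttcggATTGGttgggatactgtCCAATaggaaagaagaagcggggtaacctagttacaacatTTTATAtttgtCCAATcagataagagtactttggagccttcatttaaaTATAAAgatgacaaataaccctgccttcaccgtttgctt
Hist3h2a, chr11:58954535-58954684, plus strand: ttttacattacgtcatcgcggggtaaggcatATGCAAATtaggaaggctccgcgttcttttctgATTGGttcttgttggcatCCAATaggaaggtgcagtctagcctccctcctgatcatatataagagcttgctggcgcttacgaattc
Hist4h4, chr6:136804432-136804581, minus strand: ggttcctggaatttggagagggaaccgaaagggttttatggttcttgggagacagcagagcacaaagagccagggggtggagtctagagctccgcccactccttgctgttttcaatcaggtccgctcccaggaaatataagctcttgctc
Hist1h2ae, chr13:23571221-23571370, minus strand: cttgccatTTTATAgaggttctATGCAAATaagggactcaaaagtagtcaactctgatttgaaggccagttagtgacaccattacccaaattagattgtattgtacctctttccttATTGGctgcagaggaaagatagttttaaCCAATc
Hist1h3i, chr13:21783398-21783547, minus strand: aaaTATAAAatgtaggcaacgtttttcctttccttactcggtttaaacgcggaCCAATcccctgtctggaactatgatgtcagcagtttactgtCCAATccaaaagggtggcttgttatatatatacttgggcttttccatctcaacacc
The lower members did not share 1 arrangement. Hist2h2bb held the octamer 48 bases before the start with CCAAT 79 bases before it. Hist3h2a and Hist1h2ae held the octamer in the other orientation, 119 and 128 bases before the start. Both windows lie between the gene and an H2b row on the opposite strand, Hist3h2bb-ps and Hist1h2bg. These letters therefore cannot be assigned to 1 gene of each pair. Hist3h2ba held CCAAT 3 times and TATAAA in both orientations but no octamer, and Hist4h4 held none of the 4 motifs in these 150 bases. Hist1h3i, the higher member with a window, held CCAAT 56 and 97 bases before the start.

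Over the 250 bases upstream, the letters found differed by type of histone. CCAAT was found in all 6 H1, all 15 H2a and all 13 H2b windows and in 8 of 10 H3 windows, but in 3 of 12 H4 windows (25.0%), where 33.8% of all 32851 promoter windows hold it. The octamer was found in 6 of 15 H2a and 6 of 13 H2b windows and in none of the H1, H3 or H4 windows, against 1.60% of all windows. AAACACA was found in 5 of 6 H1 windows, 1 H2a and 1 H2b window and no H3 or H4 window, against 6.25% of all. TATAAA was found in 27 of 56 (48.2%), against 12.4%. Many H2a and H2b genes stand head to head, so neighbouring windows can share sequence. A match describes the letters only, and the absence of one says only that these letters are not in the window.

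H2b genes encode a core histone, and 3 of the 6 lower members with an unadjusted p under 0.05 were of this type. These are 18.8% of the 16 H2b rows, against 6.9% of all rows and 8.71% of gene-symbol rows. A difference between types was not tested. Hist2h2bb (RefSeq symbol H2bc18; chr3:96269700-96270192, plus strand, mm10) had the smallest p of all members and was the most abundant H2b row per length. Among the printed windows, its octamer lies nearest to the start. It measured 207, 200.5 and 185 RPKM in sham against 155, 157 and 158 RPKM in ischemia/reperfusion. The 3 ischemia/reperfusion libraries lay close together, below every sham library. The group values were 198 ± 11.2 RPKM in sham and 157 ± 1.69 RPKM in ischemia/reperfusion (SD, n = 3 per group), with log2 fold change -0.39 ± 0.09 (SE), edgeR adjusted p = 0.150. Hist3h2ba (H2bu2; chr11:58948911-58949530, plus strand) read 77.8, 80.9 and 82.8 RPKM in sham against 67.0, 65.4 and 63.9 RPKM in ischemia/reperfusion. Again the groups did not overlap, and the libraries within each group differed little: 80.5 ± 2.56 RPKM in sham and 65.4 ± 1.52 RPKM in ischemia/reperfusion (SD, n = 3 per group). Its fit gave log2 fold change -0.36 ± 0.09 (SE), edgeR adjusted p = 0.162, while DESeq2 gave an adjusted p of 0.0624. Hist3h2bb-ps (H2bu1-ps; chr11:58954048-58954512, minus strand), which RefSeq lists as a transcribed pseudogene, stood at 27.8, 24.9 and 22.7 RPKM in sham against 18.8, 22.2 and 16.9 RPKM in ischemia/reperfusion. Sham replicate 3 and ischemia/reperfusion replicate 2 came close to each other, with all sham libraries still above; the fit gave log2 fold change -0.44 ± 0.15 (SE), edgeR adjusted p = 0.221. Hist1h2bc, the other H2b row among the 3 most abundant, read 37.5, 79.7 and 82.9 RPKM in sham against 84.8, 66.2 and 93.5 RPKM in ischemia/reperfusion. Sham replicate 1 was below all other libraries and the remaining values overlapped (log2 fold change 0.23 ± 0.32 (SE), edgeR adjusted p = 0.766). None of the other 12 H2b members had an unadjusted p under 0.05, and over all 16 the median log2 fold change was 0.02, with 9 positive and 7 negative.

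Among H2a genes, the partners of H2B in the nucleosome, 2 of 14 tested members had an unadjusted p under 0.05, both lower. This is 14.3%, against 6.9% of all rows and 8.71% of gene-symbol rows. Hist3h2a (H2aw; chr11:58954685-58956674, plus strand) lies beside the Hist3 H2b genes and took 64.1% of all H2a counts. Its level was 73.0, 74.4 and 80.4 RPKM in sham against 71.9, 59.8 and 67.1 RPKM in ischemia/reperfusion. Every ischemia/reperfusion library was below every sham library, although replicate 1 of the former and of the latter nearly met. Means were 75.9 ± 3.93 RPKM in sham and 66.3 ± 6.10 RPKM in ischemia/reperfusion (SD, n = 3 per group); log2 fold change -0.25 ± 0.10 (SE), edgeR adjusted p = 0.251. Hist1h2ae (H2ac8; chr13:23570517-23571220, minus strand) was the only Hist1 member under an unadjusted p of 0.05 in the lower direction, with 13.2, 14.5 and 16.1 RPKM in sham against 12.1, 9.12 and 12.9 RPKM in ischemia/reperfusion. Ischemia/reperfusion replicate 2 was lowest and the groups did not overlap (log2 fold change -0.41 ± 0.15 (SE), edgeR adjusted p = 0.249). Hist2h2ac, next to Hist3h2a in level per length, read 44.5, 44.9 and 44.5 RPKM in sham against 46.0, 39.1 and 38.9 RPKM in ischemia/reperfusion. Its sham libraries were almost equal and 1 ischemia/reperfusion library lay above them (log2 fold change -0.17 ± 0.11 (SE), edgeR adjusted p = 0.498). Hist2h2ab read 25.9, 26.4 and 23.0 RPKM in sham against 24.7, 22.2 and 20.7 RPKM in ischemia/reperfusion, with overlapping groups (log2 fold change -0.21 ± 0.13 (SE), edgeR adjusted p = 0.464). The H2a median log2 fold change was 0.01, with 7 positive and 7 negative.

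**Figure D2:**
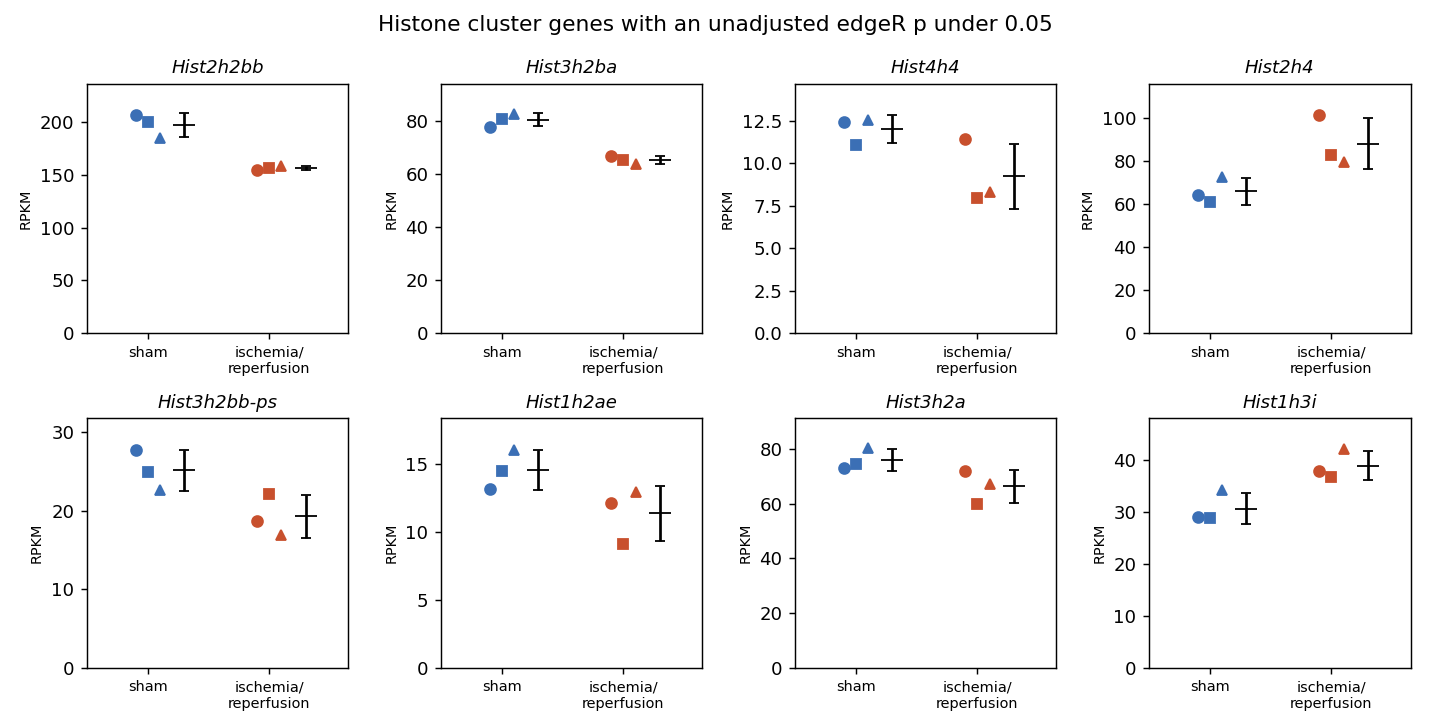
Levels (RPKM, axes from 0) of the 8 histone cluster genes with an unadjusted edgeR p under 0.05, in order of p. Circles, squares and triangles are replicates 1, 2 and 3, and black bars give the mean and SD (n = 3). Hist2h2bb and Hist3h2ba separate the groups most cleanly, and in Hist4h4 the first ischemia/reperfusion library lies among the sham libraries.

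H4 genes, which encode the most conserved core histone, gave the highest levels per length and the largest share of the counts, 44.3% to 53.8% of all member counts per library. Hist1h4d had the highest mean of all members, at 486, 526 and 523 RPKM in sham against 629, 491 and 496 RPKM in ischemia/reperfusion. Ischemia/reperfusion replicate 1 was highest and the other 5 libraries were close together (log2 fold change 0.02 ± 0.11 (SE), edgeR adjusted p = 0.951). Hist1h4c read 427, 356 and 409.6 RPKM in sham against 504, 181 and 336 RPKM in ischemia/reperfusion. The ischemia/reperfusion group held both the highest and the lowest library, a 2.79-fold range (log2 fold change -0.28 ± 0.36 (SE), edgeR adjusted p = 0.745). Hist1h4h read 329, 339 and 350.5 RPKM in sham against 426, 298 and 318 RPKM in ischemia/reperfusion, again with replicate 1 of ischemia/reperfusion on top (log2 fold change -0.03 ± 0.12 (SE), edgeR adjusted p = 0.94). Hist2h4 (H4c14; chr3:96262970-96263317, minus strand), the H4 gene of the Hist2 cluster, had 64.1, 61.0 and 72.7 RPKM in sham against 102, 83.1 and 79.8 RPKM in ischemia/reperfusion. All ischemia/reperfusion libraries were above all sham libraries: 65.9 ± 6.10 RPKM in sham and 88.2 ± 11.7 RPKM in ischemia/reperfusion (SD, n = 3 per group); log2 fold change 0.36 ± 0.12 (SE), edgeR adjusted p = 0.217. Hist4h4 (H4f16; chr6:136801553-136804431, minus strand), alone at its locus and without any of the 4 motifs in its printed window, had 12.5, 11.1 and 12.5 RPKM in sham against 11.5, 7.97 and 8.33 RPKM in ischemia/reperfusion. Ischemia/reperfusion replicates 2 and 3 were below every other library (log2 fold change -0.43 ± 0.14 (SE), edgeR adjusted p = 0.201). Replicate 1 was within the sham range in RPKM, which carries no TMM factor, and lay close to sham replicate 2. This overlap therefore depends on the scaling. Without ischemia/reperfusion replicate 1 the log2 fold change of Hist4h4 was -0.62 with an edgeR adjusted p of 0.0177, in the fit that called 1057 of 40919 rows. The remaining 8 H4 members were all in Hist1, and none of them had an unadjusted p under 0.05.

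H3 genes encode the core histone that pairs with H4. Hist1h3i (H3c11; chr13:21782915-21783397, minus strand) measured 29.0, 28.8 and 34.1 RPKM in sham against 37.9, 36.7 and 42.1 RPKM in ischemia/reperfusion. Its lowest ischemia/reperfusion library exceeded its highest sham library: 30.6 ± 3.05 RPKM in sham and 38.9 ± 2.84 RPKM in ischemia/reperfusion (SD, n = 3 per group); log2 fold change 0.29 ± 0.12 (SE), edgeR adjusted p = 0.283. Hist1h3e, the most abundant H3 row per length, read 64.2, 88.0 and 88.8 RPKM in sham against 106, 79.3 and 81.4 RPKM in ischemia/reperfusion, with overlapping groups (log2 fold change 0.09 ± 0.15 (SE), edgeR adjusted p = 0.801). Hist1h3f read 36.9, 42.4 and 48.9 RPKM in sham against 47.9, 37.8 and 44.1 RPKM in ischemia/reperfusion and also overlapped (log2 fold change -0.04 ± 0.12 (SE), edgeR adjusted p = 0.905). Of the 12 H3 members 9 had a positive log2 fold change and the median was 0.13, where 7360 gene-symbol rows were positive and 9282 negative. Under an unadjusted p of 0.05 was 1 member (8.33%), against 8.73% of all rows and 6.39% of gene-symbol rows in the higher direction. The widest ranges within ischemia/reperfusion were in 2 H3 genes of low level. Hist1h3b spanned 7.38-fold within ischemia/reperfusion, at 1.42, 1.06 and 2.84 RPKM in sham against 2.56, 0.580 and 4.28 RPKM in ischemia/reperfusion, and Hist1h3c spanned 6.23-fold, at 3.48, 4.80 and 11.5 RPKM in sham against 8.54, 1.94 and 12.1 RPKM in ischemia/reperfusion; both were singled out after their values were seen. In both genes sham replicate 3 and ischemia/reperfusion replicates 1 and 3 were above sham replicates 1 and 2, and ischemia/reperfusion replicate 2 was lowest.

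H1 genes, the linker histones, had no member under an unadjusted p of 0.05, and their median log2 fold change was -0.03. Hist1h1c, the most abundant per row length, read 63.7, 89.7 and 73.9 RPKM in sham against 75.2, 69.3 and 99.0 RPKM in ischemia/reperfusion. Hist1h1e read 32.7, 48.5 and 45.6 RPKM in sham against 38.3, 45.8 and 60.2 RPKM in ischemia/reperfusion. In both, sham replicate 1 was lowest and ischemia/reperfusion replicate 3 was highest (log2 fold change 0.04 ± 0.15 (SE), edgeR adjusted p = 0.92 for Hist1h1c; log2 fold change 0.13 ± 0.19 (SE), edgeR adjusted p = 0.785 for Hist1h1e). Hist1h1a read 37.0, 39.2 and 35.6 RPKM in sham against 37.6, 29.8 and 35.2 RPKM in ischemia/reperfusion, with 1 low library, ischemia/reperfusion replicate 2 (log2 fold change -0.18 ± 0.11 (SE), edgeR adjusted p = 0.459). Hist1h1t, the linker histone gene of the testis, was the least abundant tested member, with 53 counts over the 6 libraries.

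**Figure D3:**
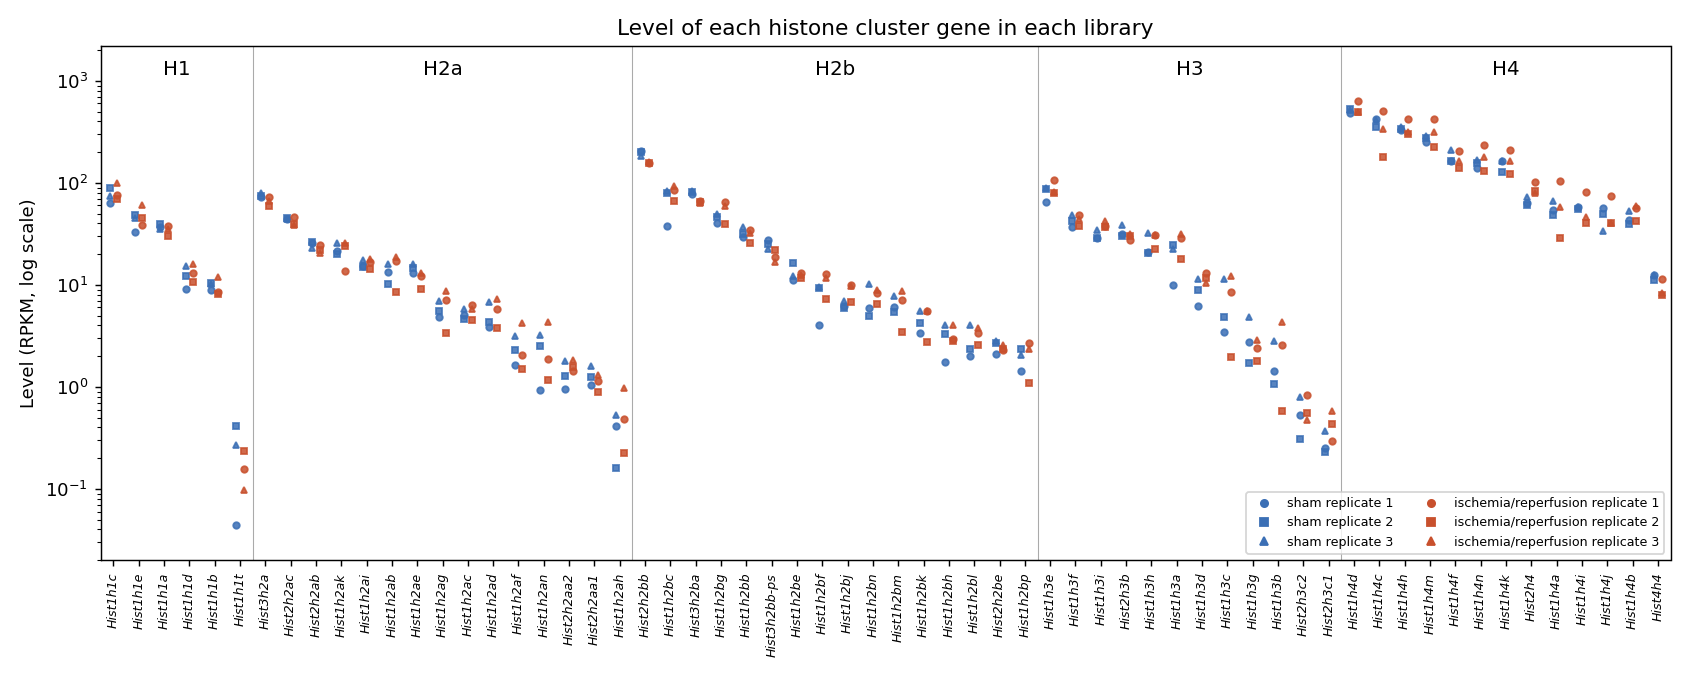
Level (RPKM, log scale) of each of the 62 kept members in each of 6 libraries, ordered by mean within type. Blue marks sham and red ischemia/reperfusion, and the symbol gives the replicate. H4 members hold the highest levels, the 5 types each span more than a 10-fold range, and the groups overlap for most members.

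The members just inside the count minimum were Hist1h2ah, with 51 counts and too few to be tested, and Hist1h1t. The 6 rows left out were Hist1h2aa with 2 counts, Hist1h2ao and Hist1h2ap with 1 each, and Hist1h2ba, Hist1h2bq and Hist1h2br with 0. Of these, Hist1h2ao, Hist1h2ap, Hist1h2bq and Hist1h2br are given long spans that contain other histone rows, so a count near 0 says how reads were assigned there and is no level of the gene.

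Summed over a type, the members gave levels in ischemia/reperfusion near those in sham. H1 rows summed to 224, 306 and 282 CPM in sham against 264, 256 and 353 CPM in ischemia/reperfusion, a ratio of group means of 1.08. H2a rows summed to 222, 225 and 248 CPM in sham against 225, 186 and 219.7 CPM in ischemia/reperfusion (ratio 0.907). H2b rows summed to 275, 324 and 319 CPM in sham against 304, 261 and 305 CPM in ischemia/reperfusion (0.947). In all of these the groups overlapped. H3 rows summed to 113, 136 and 161 CPM in sham against 165, 129 and 157 CPM in ischemia/reperfusion (1.10), and H4 rows to 828, 814 and 886 CPM in sham against 1116, 675 and 822 CPM in ischemia/reperfusion (1.03). H4 in ischemia/reperfusion replicate 1 stood above, and in replicate 2 below, every other library. Over all members the sums were 1662, 1805 and 1896 CPM in sham against 2074, 1508 and 1857 CPM in ischemia/reperfusion (1.01). With TMM factors, a scaling added after seeing the data, the ratio was 0.993 for H4 and 1.03 for H1, so ratios this near 1 depend on the scaling. The sums have no test, since the members were chosen with results known, and with no length scale they weigh long rows more.

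By locus the sums differed in how far they separated. Hist2 summed to 173, 169.7 and 169.9 CPM in sham against 159.7, 152 and 152 CPM in ischemia/reperfusion (ratio 0.906) and Hist3 to 206, 209.8 and 222 CPM in sham against 193, 169.9 and 181 CPM in ischemia/reperfusion (0.853), and in both every ischemia/reperfusion library was below every sham library. Hist3h2a makes up most of the Hist3 sum, and Hist2h2bb of the Hist2 sum, so these sums repeat the single genes above. Hist1 summed to 1247, 1394 and 1468 CPM in sham against 1688, 1163 and 1499.7 CPM in ischemia/reperfusion and overlapped. Libraries of a group differed more in the Hist1 sum, with an SD of 112 CPM around 1370 in sham and 266 CPM around 1450 after ischemia/reperfusion, than in the Hist2 sum, with 1.69 CPM around 171 and 4.36 CPM around 155.

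**Figure D4:**
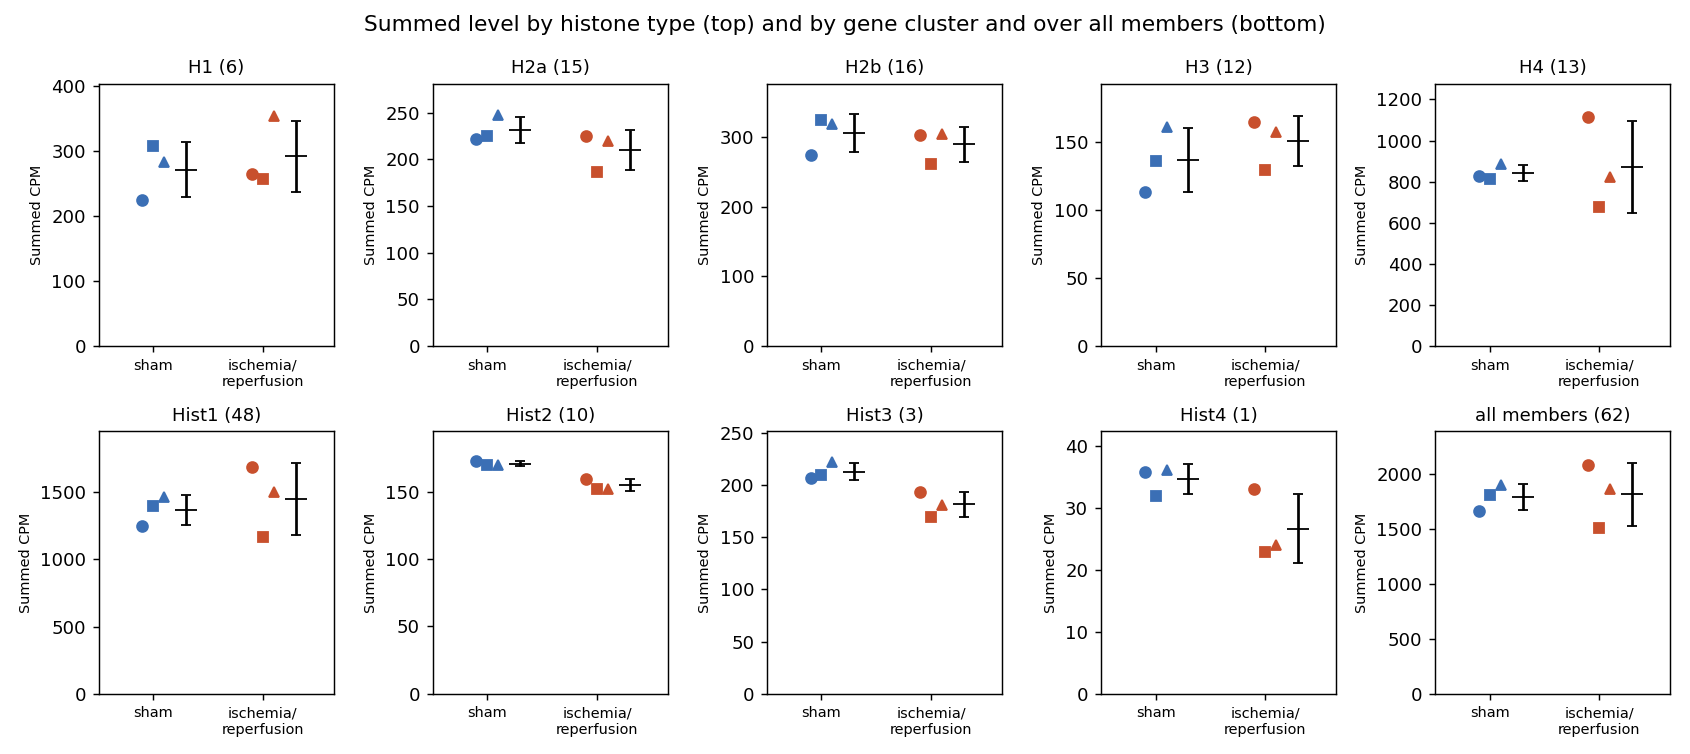
Summed CPM of the kept members by histone type (top row) and by gene cluster and over all members (bottom row), with the number of members in brackets and axes from 0. Circles, squares and triangles are replicates 1, 2 and 3, and black bars give the mean and SD (n = 3). The groups separate for Hist2 and Hist3, and the H4 sum ranges from 675 to 1116 CPM within ischemia/reperfusion.

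Libraries of a group differed more in the median histone member than in the median gene-symbol row, a description with no test. The median SD of log2 levels was 0.234 in sham and 0.293 in ischemia/reperfusion over 61 members, against 0.131 and 0.188 over 16642 gene-symbol rows. The SD was wider in ischemia/reperfusion for 38 of 61 members (62.3%) and for 11017 of 16642 gene-symbol rows (66.2%), so this share was near the background. By type it was wider for 13 of 13 H4 members (median SD 0.397 against 0.131 in sham), 11 of 14 H2a, 4 of 6 H1, 7 of 16 H2b and 3 of 12 H3 members (0.299 against 0.398). The types were set apart after their values were seen, and the difference between them was not tested. Ischemia/reperfusion replicate 2 was the lowest of its group for 46 of 62 members, 43 of them in Hist1, and was the highest of all 6 libraries for none. Sham replicate 3 was the highest of its group for 46 members. Ischemia/reperfusion replicate 1 was the highest of its group for 12 of 13 H4 members but for 1 of 6 H1 members, and replicate 3 for 11 of 15 H2a and 4 of 6 H1 members. These orders are of CPM, without TMM factors, and were not counted over all rows. Whether they are particular to histone members was therefore not tested, and near-identical members may share reads. Relative to the sham mean, the median member stood at -0.15, -0.05 and 0.17 (log2) in sham replicates 1 to 3 and at 0.23, -0.19 and 0.20 in ischemia/reperfusion replicates 1 to 3. Mki67 and Top2a, which mark dividing cells, were chosen for a side-by-side view after their values were seen. Mki67 read 1.25, 1.27 and 3.89 CPM in sham against 3.36, 2.41 and 3.98 CPM in ischemia/reperfusion, and Top2a 0.946, 0.665 and 2.31 CPM in sham against 1.40, 0.997 and 3.06 CPM in ischemia/reperfusion. Both were highest in sham replicate 3 within sham and in replicate 3 within ischemia/reperfusion, as Hist1h3b and Hist1h3c were. The 18 listed genes of S phase and mitosis, from which these 2 were picked, did not all have this order. Ccnb1, Cdk1, Rrm2, Mcm5 and Mcm6 were also highest in replicate 3 of both groups. Pcna, E2f1 and Ccne1 were lowest there, with Pcna at 50.3, 52.1 and 46.9 CPM in sham against 47.0, 46.6 and 44.7 CPM in ischemia/reperfusion. In ischemia/reperfusion replicate 2, Hist1h3b and Hist1h3c were the lowest of all 6 libraries, while Mki67 and Top2a were not. Summed oligodendrocyte markers were also highest in replicate 3 of both groups, at 4617 and 8077 CPM. So were precursor markers, at 149 and 120 CPM, and these were lowest in ischemia/reperfusion replicate 2 (64.6 CPM). Whether dividing cells or any other cell type has a part in the spread of the histone members was not tested.

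**Figure D5:**
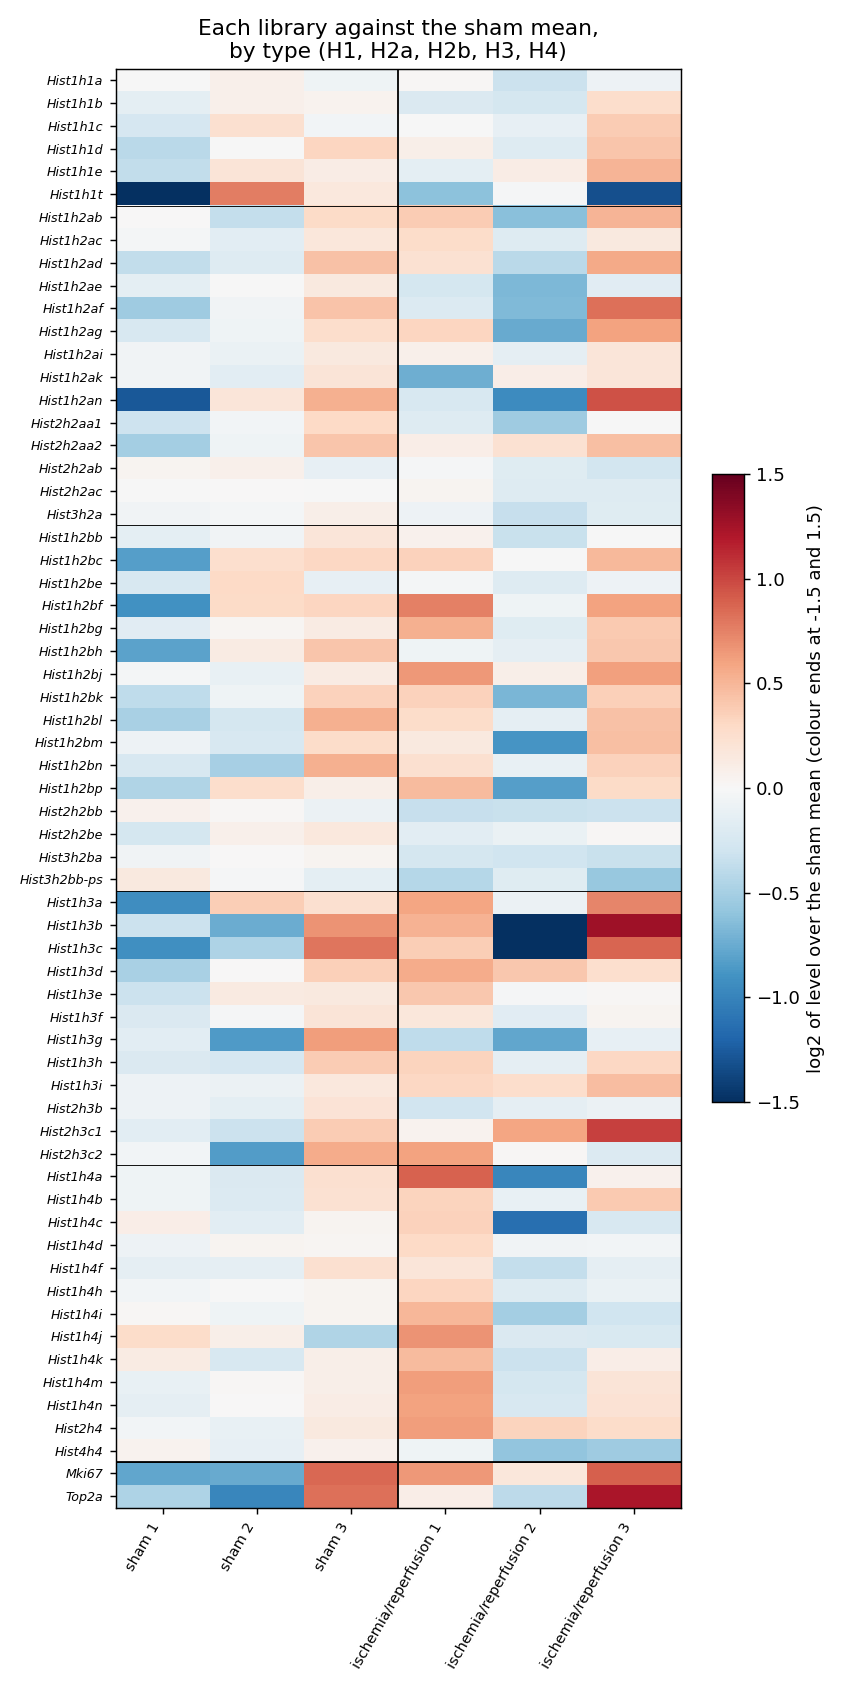
Level of each of the 61 tested members, and of Mki67 and Top2a at the bottom, in each library as log2 of CPM over the sham mean (red above, blue below, with the same colour limit on either side). Ischemia/reperfusion replicate 1 is red across most of H4, replicate 2 is blue across most of Hist1, and the even pale blue of Hist2h2bb and Hist3h2ba in all 3 ischemia/reperfusion libraries stands between more variable rows.

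How the rows were defined limits what a level means. Of the 62 rows, 27 had the length of a coding region (most often 312 bases in H4, 381 in H2b, 393 in H2a and 411 in H3), 34 were shorter than the gene's span in RefSeq, and 14 were longer than it by at least 100 bases. Reads outside a short row are not counted, but a RefSeq span runs from end to end with any introns. Hist1h2bc (row of 728 bases, span of 8282) and Hist1h2be (2510 and 37455) thus count as shorter although row and gene have the same ends. A long row dilutes its RPKM: Hist3h2a has a row of 1990 bases against a RefSeq span of 508, and Hist4h4 one of 2879 against 439. Per kilobase of RefSeq span, Hist3h2a measured 278 and Hist4h4 69.8 CPM, against 408 for Hist1h4d, so the order of levels between genes depends on the gene model. The group comparison of a row uses the same length in every library. Hist4h4, Hist3h2a, Hist1h2ae and Hist3h2ba, which were lower at an unadjusted p under 0.05, are among the 14 long rows; whether row length has a part in this was not tested.

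Some members share reads with another row. The rows of 13 members overlap another row and 10 overlap one on the opposite strand. Hist1h1d had 1357 to 2206 counts and an opposite-strand cDNA clone row over part of it between 99.2% and 100.5% of the same number in each library. For Hist3h2a an opposite-strand clone row held 86.2% to 90.3% of its counts. Another clone row, opposite both Hist2h2bb and Hist2h3b, held 103% to 107% of their summed counts and had a log2 fold change of -0.39. With the strand setting of the counting not given in the sources used here, reads of these members and of opposite-strand transcripts cannot be told apart. Hist1h4n held 42.6% to 44.5% of the counts of Hist1h4m, which its row overlaps, and Hist2h2aa1 and Hist2h2aa2 share 1 position. Levels within these pairs, and between near-identical histone genes in general, are uncertain, since how reads that match several genes were assigned is not stated.

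Genes that make, process or carry histones were counted beside the members, in the same fit and with no gene past an adjusted p of 0.05. The replacement histones, outside the clusters, had 1 higher and 1 lower of 11 at an unadjusted p under 0.05 (9.09% each, against 6.39% and 8.71% of gene-symbol rows). Their median log2 fold change was -0.04. H3f3a, which encodes H3.3, read 108, 112 and 118 CPM in sham against 95.6, 87.0 and 103 CPM in ischemia/reperfusion, lower in every ischemia/reperfusion library (log2 fold change -0.30 ± 0.09 (SE), edgeR adjusted p = 0.201). H3f3b also encodes H3.3 and was named after its value was seen. It read 185, 250 and 201 CPM in sham against 272, 190 and 238 CPM in ischemia/reperfusion, with overlapping groups (log2 fold change 0.08 ± 0.14 (SE), edgeR adjusted p = 0.821). The lower level of H3f3a was thus not shared by both H3.3 genes. Cenpa, the H3 variant of centromeres, read 0.805, 1.23 and 1.88 CPM in sham against 3.36, 1.56 and 2.73 CPM in ischemia/reperfusion, where 1 ischemia/reperfusion library lay within the sham range (log2 fold change 0.91 ± 0.34 (SE), edgeR adjusted p = 0.253). H2afv, an H2A.Z gene, came next (log2 fold change -0.20 ± 0.11 (SE), edgeR adjusted p = 0.384). Genes of histone transcription and 3′ end processing had 1 higher and 4 lower of 16 (6.25% and 25.0%), against 6.39% and 8.71% of gene-symbol rows, and a median of -0.08. The 3 with the smallest p were Casp8ap2, a protein of histone gene transcription (log2 fold change -0.33 ± 0.11 (SE), edgeR adjusted p = 0.213), Lsm10, a subunit of the U7 particle (log2 fold change -0.41 ± 0.15 (SE), edgeR adjusted p = 0.247), and Coil, which encodes coilin of Cajal bodies (log2 fold change -0.27 ± 0.10 (SE), edgeR adjusted p = 0.248). All 3 genes were lower in every ischemia/reperfusion library than in any sham library. Casp8ap2 read 31.9, 28.8 and 29.3 CPM in sham against 27.0, 22.2 and 25.3 CPM in ischemia/reperfusion. Lsm10 read 6.32, 5.32 and 5.38 CPM in sham against 4.28, 4.25 and 4.76 CPM in ischemia/reperfusion. Coil read 29.2, 29.1 and 29.1 CPM in sham against 25.3, 26.3 and 23.5 CPM in ischemia/reperfusion. Slbp, named after its value was seen because its protein binds the stem-loop, read 25.6, 28.1 and 22.3 CPM in sham against 20.8, 23.0 and 20.6 CPM in ischemia/reperfusion, with overlapping groups (log2 fold change -0.30 ± 0.12 (SE), edgeR adjusted p = 0.283). Upf1, the 1 higher gene and also named after its value was seen, read 53.5, 47.5 and 50.9 CPM in sham. It read 72.2, 55.3 and 63.5 CPM in ischemia/reperfusion (log2 fold change 0.27 ± 0.11 (SE), edgeR adjusted p = 0.269). Of the 16 genes, groups did not overlap in CPM, without TMM factors, for 4 higher and 4 lower (25.0% each), against 10.3% and 8.79% of gene-symbol rows. The 4 higher were Upf1, Srrt, Sympk and Cstf2, with log2 fold changes of 0.27, 0.13, 0.12 and 0.05 in the fit, so this count depends on the scaling.

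Histone chaperones, which carry histones to and from DNA, had none of 12 under an unadjusted p of 0.05 in either direction. Their 3 smallest p-values were those of Chaf1a, a subunit of the assembly factor CAF-1 (adjusted p = 0.383), Asf1a, a carrier of H3 and H4 (0.441), and Daxx, a chaperone of H3.3 (0.565), all edgeR. Genes of S phase and mitosis had none higher and 1 lower of 17 tested (0% and 5.88%, against 6.39% and 8.71% of gene-symbol rows). The lower gene was Mcm6, a subunit of the replicative helicase, at 8.45, 6.32 and 8.57 CPM in sham against 5.68, 5.94 and 5.94 CPM in ischemia/reperfusion (log2 fold change -0.46 ± 0.15 (SE), edgeR adjusted p = 0.216). E2f1, a transcription factor of S phase entry, followed with edgeR adjusted p = 0.367, and Ccne2, a cyclin of that entry, with 0.387. Structured RNAs without a poly(A) tail were counted too, and they are no check on the stem-loop ends of histone messages. Of 10 listed, 7 had a row, 4 were tested and none had an unadjusted p under 0.05. Rpph1, the RNA of RNase P, read 20531, 20752 and 21473 CPM in sham against 16943, 18556 and 22164 CPM in ischemia/reperfusion (log2 fold change -0.18 ± 0.11 (SE), edgeR adjusted p = 0.44). Terc, the RNA of telomerase, had edgeR adjusted p = 0.761 and Rprl1, a gene related to Rpph1, 0.916.

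The authors' deposited table of this comparison gave a q under 0.05 to 18 of the 62 members in the higher direction and 7 in the lower, where 14.7% and 9.77% of its 45851 rows had such a q. Their test (not given in the sources used here) was not used for any statement above.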

How the data were processed

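Brain RNA was freed of ribosomal RNA, made into NEBNext Ultra libraries and sequenced as read pairs, per the labels' protocols. The genome build is mm10, per the submitters' processing notes, and aligner, counter, annotation and strand setting are not given in sources used here. Raw counts and RPKM per row were deposited by the authors, and RPKM equalled count per kilobase and 1e6 counts in 100% of values (relative tolerance 0.001). The authors' deposited comparison table holds mean RPKM, log2 fold changes, p-values and q-values, and only its q-values were used.

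The 40170 rows that passed filterByExpr were tested with edgeR 4.0.16 in R 4.3.3 (TMM factors, two-sided robust quasi-likelihood F test, Benjamini-Hochberg over these rows, threshold 0.05), after the steps had been tested on simulated data. The SE is the size of the log2 fold change over the square root of F. CPM were counts per 1e6 of the column total. Members matched RefSeq by gene ID in 62 of 62 cases. Replicates differed beyond sampling noise, so every library is 1 sample. Members, gene lists, tests and the rule for named genes were chosen with earlier results of these data known. Named were the 3 members of each type with the highest mean RPKM, every member with an unadjusted p under 0.05, and the 3 genes of each pathway list with the smallest p. Alternatives covered normalization (RLE, upper quartile), row filters (none, 1 CPM, gene-symbol rows alone), tools (DESeq2 1.42.0, limma-voom 3.58.1), a replicate block, members without an overlapping row, a summed count of at least 100, and each library left out.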

Additional observations from a re-analysis of the deposited data

How the results depend on the processing

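No edgeR or limma-voom setting that kept all 6 libraries gave a member an adjusted p under 0.05, and DESeq2 gave it to 1, Hist2h2bb. The counts of 2 higher and 6 lower members at an unadjusted p under 0.05 stayed within 1.5 times under the other scalings, filters and tools. They were 2 and 3 of 48 members when those on rows overlapping another row were left out, because Hist2h2bb, Hist3h2a and Hist4h4 are among these. The shares of all rows in that fit were 8.73% higher and 6.9% lower. Leaving out 1 library gave 1 to 6 higher members (1 without sham replicate 1, sham replicate 2 or ischemia/reperfusion replicate 3, and 6 without ischemia/reperfusion replicate 2) and 4 to 11 lower members (11 without ischemia/reperfusion replicate 1). Members past an adjusted p of 0.05 numbered 0 to 2, with the 2 being Hist1h4i (log2 fold change -0.46, edgeR adjusted p = 0.0436) and Hist4h4 without ischemia/reperfusion replicate 1, a fit that called 2.58% of all rows. The median log2 fold change ran from -0.10 to 0.19 in these fits. The 8 members with an unadjusted p under 0.05 kept their direction in every setting run, but 4 did not stay under 0.05 when 1 library was left out: Hist3h2bb-ps (sham replicate 1 or ischemia/reperfusion replicate 3), Hist1h2ae and Hist3h2a (sham replicate 3 or ischemia/reperfusion replicate 2) and Hist1h3i (sham replicate 1, sham replicate 2 or ischemia/reperfusion replicate 3). Abundant members near 0 did not. Hist1h3f turned from -0.04 to 0.0011 with upper-quartile factors and 0.0048 on gene-symbol rows alone, and Hist1h4h from -0.03 to 0.014, 0.018 and, with rows of at least 1 CPM, 0.0071. Without 1 library, log2 fold changes ranged from -0.12 to 0.19 for Hist1h1c, -0.062 to 0.26 for Hist1h1e, -0.059 to 0.40 for Hist1h2bc, -0.059 to 0.17 for Hist1h3e, -0.14 to 0.055 for Hist1h3f, -0.11 to 0.075 for Hist1h4d, -0.69 to 0.012 for Hist1h4c and -0.20 to 0.062 for Hist1h4h. The cause was not tested. Deviations from the group mean correlated at -0.07, 0.03 and 0.11 between same-numbered libraries and at -0.14 to 0.11 between differently numbered ones. Pairing by replicate number was thus neither shown nor excluded. A replicate block gave 2 higher and 6 lower members and 0 past an adjusted p of 0.05. Ratios of summed levels moved by less than their replicate spread, but some crossed 1: H2b from 0.947 to 1.04 without overlapping rows, H1 from 1.08 to 0.989 without sham replicate 1 or 0.960 without ischemia/reperfusion replicate 3, and H4 from 1.03 to 0.888 without ischemia/reperfusion replicate 1 and 0.986 with RLE factors.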
